A study of Mus musculus with 5 samples.

Results

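Dendritic cell lineage genes were followed through RNA sequencing libraries of macrophages sorted from the mouse aorta. The set was a fixed list of 10 markers and transcription factors, Flt3, Zbtb46, Xcr1, Clec9a, Kmo, Itgae, Batf3, Irf4, Irf8 and Dpp4. All 10 were found among the 41388 genes of the deposited tables, each under 1 Ensembl identifier. Positions below are those of the whole gene in the files, on GRCm38. The 3 adventitia libraries came from ApoE-/- mice of the C57BL/6 strain, 6 mice in all, kept on high-fat food for 28 weeks, and held live CD64-positive cells of the outer layer of the whole aorta. The 2 intima libraries came from C57BL/6 mice, 5 animals pooled in each, and held live thoracic aorta cells sorted as CD64+, CD11c+ and MHC II+, left after the outer layer had been stripped. The labels used here give no age for either group and no diet for the intima mice. Layer, genotype, aortic segment and sort gate differed together. High-fat food is given for the adventitia mice alone, and pooling for the intima mice alone. None of these can be told apart from the others in any difference below. How the 6 ApoE-/- mice were spread over the adventitia libraries is not given in the sources used here, and p-values measure only the spread between these libraries, which may be partly technical.

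Conventional dendritic cells take up antigen and present it to T cells. They arise from precursors that depend on the cytokine receptor Flt3 and, once committed, carry the transcription factor Zbtb46. The branch called cDC1 needs the transcription factors Irf8 and Batf3 and carries Xcr1, Clec9a and, in many tissues, the integrin chain Itgae; the branch called cDC2 uses Irf4. Both sorts here were gated on CD64, a receptor typical of macrophages, while CD11c and MHC class II, gated in the intima sort alone, are shared by macrophages and dendritic cells. Irf8, Irf4 and Batf3 are also used by other leukocytes, macrophages included, whereas Flt3, Zbtb46 and Xcr1 are more restricted among myeloid cells.

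The libraries held 3941381 to 10076142 counted reads in the adventitia and 14970204 and 20806925 in the intima. A floor of 3 reads stood at 0.761 CPM (counts scaled to a common library total by the authors) for the shallowest library and at 0.144 CPM for the deepest. Macrophage markers were abundant in all 5 libraries, with Csf1r at 741 to 1589 CPM and Fcgr1, which encodes CD64, at 115 to 280 CPM. Apoe, disrupted in the adventitia donors, was at 10.8 to 21.1 CPM there and at 4741 and 4209 CPM in the intima. Genes with any read numbered 23289, 25212 and 25738 in the adventitia libraries. In the deeper intima libraries they numbered 17489 and 16374. The intima libraries disagreed more than the adventitia libraries. At 1 common depth, 12.7% of the genes at 10 to 50 CPM in intima replicate 2 had no read in intima replicate 1, and 8.09% the other way round, against 0.398 to 1.13% between adventitia libraries.

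Reads of Irf8, Batf3 and Clec9a were found in every library, of Irf4 in 4 of 5, and Xcr1, Flt3, Zbtb46, Itgae, Dpp4 and Kmo had between 0 and 5 reads in each intima library while all were detected in the adventitia. By deposited CPM the groups did not overlap for 8 members. Irf8 and Clec9a were higher in both intima libraries, and 6 members were lower in both. Among the 13408 tested genes, 40.5% did not overlap, 14.1% with the intima higher and 26.4% with the intima lower. In edgeR's quasi-likelihood test over all genes, with Benjamini-Hochberg adjustment, 1 of the 10 members passed at an adjusted p under 0.05. That member was Kmo, which was lower in the intima. The test called 0.671% of all tested genes, 0.149% lower and 0.522% higher. At an unadjusted p under 0.05 in edgeR, 6 of the 10 members were lower and 1, Irf8, was higher. By that rule 1916 of the 13408 tested genes were lower and 1094 higher. Differences are given as intima minus adventitia. Their median on the log2 scale was -4.36 over the 10 members and 0.14 over all tested genes. With no filter beyond 1 read, which keeps scarce genes, the all-gene median was -1.86. DESeq2 on the 13408 tested genes called Kmo, Dpp4, Xcr1 and Zbtb46 lower, against 5.86% of all genes with an adjusted p (9.9% in either direction). It gave no adjusted p for Flt3 and Itgae, and limma voom called Kmo, Dpp4, Xcr1 and Flt3 lower, against 4.66% of genes (6.26% in either direction). No member was called higher by any of the 3 tools, which called 0.522%, 4.04% and 1.60% of genes higher.

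**Figure D1:**
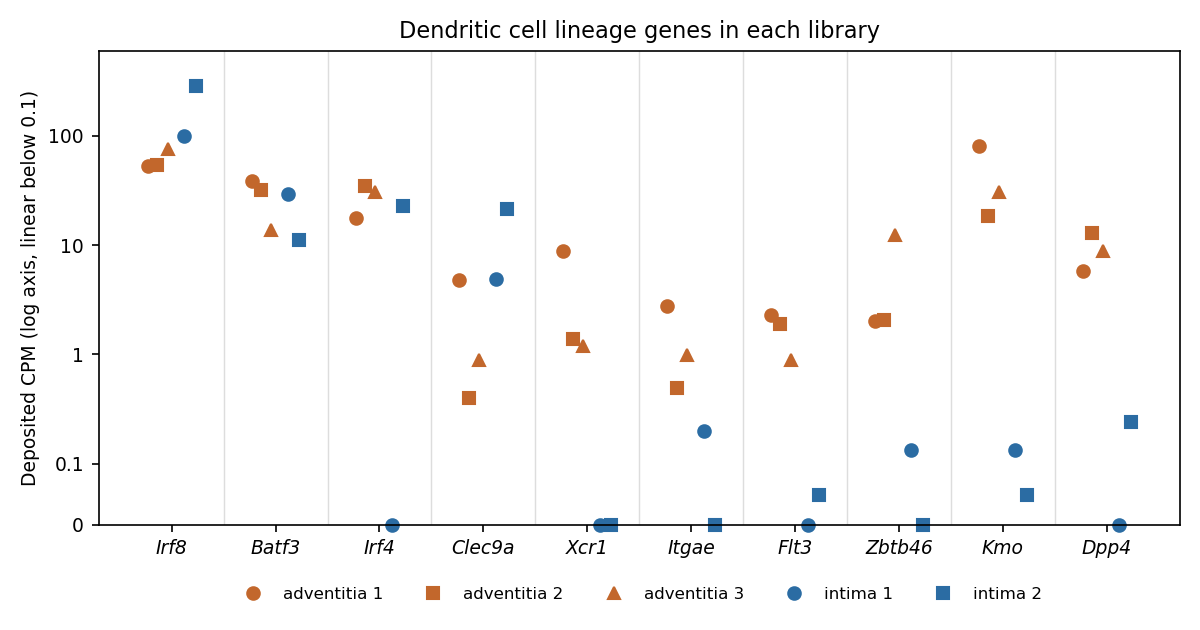
Deposited CPM of the 10 genes in each library (y axis logarithmic, linear below 0.1; orange, 3 adventitia libraries; blue, 2 intima libraries; marker shape, replicate number). The intima points lie above all adventitia points for Irf8 and Clec9a, and below them for Xcr1, Itgae, Flt3, Zbtb46, Kmo and Dpp4. For Batf3 intima replicate 1 lies among them and intima replicate 2, at 11.2 CPM, below them. For Irf4 the intima points are at 0 and 23.0 CPM.

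Irf8 (ENSMUSG00000041515, chromosome 8, 120736358 to 120756694, plus strand), the interferon regulatory factor on which cDC1 and monocyte development depend, had 207, 542 and 759 reads in the adventitia libraries and 1495 and 5971 in the intima libraries. These came to 52.5, 53.8 and 75.5 CPM against 99.9 and 287 CPM. Both intima libraries lay above all adventitia libraries, and intima replicate 2 was far above intima replicate 1. The means were 60.6 ± 12.9 CPM (SD, n = 3) and 193 ± 132 CPM (SD, n = 2). The log2 difference of 1.86 (SE 0.55) did not pass (adjusted p = 0.109 in edgeR).

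Batf3 (ENSMUSG00000026630, chromosome 1, 191098414 to 191108943, plus strand), the basic leucine zipper partner that sustains Irf8 in cDC1, did not separate the groups. It had 151, 319 and 138 reads in the adventitia, or 38.3, 31.7 and 13.7 CPM, and 439 and 232 reads in the intima, or 29.3 and 11.2 CPM. The intima values fell on either side of the lowest adventitia value. The log2 difference was -0.16 (SE 0.99, adjusted p = 0.952 in edgeR).

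Irf4 (ENSMUSG00000021356, chromosome 13, 30749226 to 30766927, plus strand), the factor of cDC2 and also of lymphocytes and alternatively activated macrophages, was read in 1 of the 2 intima libraries. It had 70, 347 and 305 reads in the adventitia, or 17.8, 34.4 and 30.3 CPM. Intima replicate 1 had 0 reads, and intima replicate 2 had 479, or 23.0 CPM. The count of 0 allows up to 0.200 CPM there, while the adventitia mean would have given 335 reads at that library's depth. Intima replicate 2 sat inside the adventitia range and intima replicate 1 outside it. The log2 difference was -1.12 (SE 1.69, adjusted p = 0.763 in edgeR), and it was -10.93 without intima replicate 2 (adjusted p = 0.0492 in edgeR, where the spread of the 1 intima library is taken from the adventitia).

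Of 13 T and NK cell markers, 8 were lower in intima replicate 1 than in replicate 2, as Irf4 was, 2 (Cd4 and Cd2) were higher, and 3 had no read in either. Of the 13, 11 had fewer than 3 reads in intima replicate 1 and 4 in intima replicate 2. Cd3e, a chain of the T cell receptor complex, had no read in the former and 11.7 CPM in the latter, Cd8b1 was at 0.0668 and 10.9 CPM, and Lck, the kinase of that receptor, at 0.0668 and 9.90 CPM. In the adventitia Cd3e was at 0.199 to 2.59 CPM, where Irf4 was at 17.8 to 34.4 CPM. The summed level of the 13 markers was 122 and 129 CPM in the intima, mostly Cd4 in replicate 1, and 17.0 to 48.2 CPM in the adventitia. A list of 9 B and plasma cell markers leaned the other way. In it 5 genes were higher in intima replicate 1, where Irf4 had no read. The 2 that were higher in replicate 2 were Cd79b and Cd22, and 2 had no read in either. Igkc had 773 reads in replicate 1 and 1 in replicate 2, Mzb1 274 and 0, and Cd22 207 and 549. The part of T, NK, B and plasma cells in the Irf4 values was not tested.

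Among the cDC1 surface receptors, Clec9a was above and Xcr1 below the adventitia in both intima libraries, though neither passed the test. Clec9a (ENSMUSG00000046080, chromosome 6, 129408862 to 129424764, plus strand), a lectin that binds actin filaments exposed by dying cells, had 19, 4 and 9 reads in the adventitia and 74 and 447 reads in the intima. These came to 4.82, 0.397 and 0.895 CPM, set against 4.94 and 21.5 CPM. The intima libraries were higher, but intima replicate 1 exceeded adventitia replicate 1 by little. The log2 difference was 2.99 (SE 1.70, adjusted p = 0.327 in edgeR).

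Clec9a overlaps the gene before it on the same strand. Clec1b, which encodes a lectin of platelets and some myeloid cells, shares 184 exon bases with it, in the files' exon columns as in GENCODE M21. Clec1b was at 0, 1.69 and 7.56 CPM in the adventitia, against 44.8 and 46.4 in the intima, and its difference of 4.02 on the log2 scale did not pass in edgeR (SE 1.46, adjusted p = 0.142). Clec1b was level between the intima libraries, where Clec9a differed, and it had no read in adventitia replicate 1, where Clec9a was highest in that group. Clec1a, the next gene after Clec9a, was at 1.27 to 6.96 CPM in the adventitia, against 6.81 and 24.0 in the intima, the same order of the intima libraries as Clec9a. Of the other lectin genes of the cluster, Clec12b had reads in intima replicate 2 and adventitia replicate 2 only, at 11.7 and 0.298 CPM, and Clec7a was at 147 to 321 CPM in the adventitia, against 522 and 507 in the intima. How reads in the shared bases were assigned is not given in the sources used here, and their part in the Clec9a counts was not tested.

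Xcr1 (ENSMUSG00000060509, chromosome 9, 123852315 to 123862029, minus strand), the receptor for the T and NK cell chemokine Xcl1, had 35, 14 and 12 reads in the adventitia, or 8.88, 1.39 and 1.19 CPM. It had 0 reads in both intima libraries, where the lowest adventitia level would have given 15.3 and 23.9 reads. Against a floor of 3 reads over both intima libraries, Xcr1 was at least 36.9-fold lower in the intima, a bound on counting error alone. Leaving out adventitia replicate 1 brought it to 13.8-fold, intima replicate 1 to 22.5-fold and intima replicate 2 to 14.4-fold. The log2 difference did not pass (adjusted p = 0.108 in edgeR). Itgae (ENSMUSG00000005947, chromosome 11, 73090583 to 73147446, plus strand), the integrin chain CD103 that binds E-cadherin, had 11, 5 and 10 reads in the adventitia and 3 and 0 in the intima. The adventitia levels were 2.79, 0.496 and 0.995 CPM, and the intima levels 0.200 and 0 CPM. Its log2 difference of -3.42 (SE 1.55) did not pass (adjusted p = 0.220 in edgeR).

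Promoter windows of these factor and receptor pairs are shown because, in intima replicate 1, Irf8 and Clec9a were above every adventitia library while Irf4 and Xcr1 were at 0. The windows hold the 250 bases before the RefSeq start, 5′ to 3′ on the gene's strand, from the GRCm38.p6 promoter table, which had 9 of the 10 members; Itgae was not in it. Capitals mark matches on either strand to 5 motifs: the paired interferon regulatory factor site of GAAA and GAAA 2 bases apart, the combined ETS and interferon regulatory factor site of GGAA and GAAA 2 bases apart, the AP-1 site TGANTCA, the STAT site TTCNNNGAA and the TATA box TATAAA.
Irf8, chr8:120736108-120736357, plus strand: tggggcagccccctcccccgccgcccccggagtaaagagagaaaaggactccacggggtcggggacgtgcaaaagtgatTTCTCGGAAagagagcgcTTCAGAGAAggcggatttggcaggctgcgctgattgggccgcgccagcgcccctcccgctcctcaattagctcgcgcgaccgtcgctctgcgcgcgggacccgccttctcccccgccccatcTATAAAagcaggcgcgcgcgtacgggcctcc
Irf4, chr13:30748983-30749232, plus strand: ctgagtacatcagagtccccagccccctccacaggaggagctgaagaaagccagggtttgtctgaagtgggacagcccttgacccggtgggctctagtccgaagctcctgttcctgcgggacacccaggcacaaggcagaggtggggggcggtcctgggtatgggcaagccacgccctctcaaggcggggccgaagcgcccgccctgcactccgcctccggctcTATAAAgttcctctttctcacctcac
Clec9a, chr6:129408612-129408861, plus strand: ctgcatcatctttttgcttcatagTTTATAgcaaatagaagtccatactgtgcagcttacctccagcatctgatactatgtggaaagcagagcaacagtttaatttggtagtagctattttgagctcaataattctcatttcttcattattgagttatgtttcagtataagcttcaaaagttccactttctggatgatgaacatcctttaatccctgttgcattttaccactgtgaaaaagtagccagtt
Xcr1, chr9:123862030-123862279, minus strand: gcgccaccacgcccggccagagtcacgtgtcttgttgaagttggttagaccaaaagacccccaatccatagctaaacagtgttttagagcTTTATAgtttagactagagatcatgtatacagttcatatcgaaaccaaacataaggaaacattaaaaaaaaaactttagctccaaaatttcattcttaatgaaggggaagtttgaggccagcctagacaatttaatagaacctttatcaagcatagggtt

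The factor windows were rich in G and C, at 67.2% for Irf8 and 63.6% for Irf4, and the receptor windows were not, at 35.6% for Clec9a and 38.8% for Xcr1. Irf8 held 2 STAT matches, from 171 to 163 and from 153 to 145 bases before its start, a motif found in 7.02% of the 32851 windows of the table. TATA matches stood 31 to 26 bases before the start of Irf8 and 26 to 21 before that of Irf4, but 226 to 221 bases before that of Clec9a and 160 to 155 before that of Xcr1. The TATA motif was in 12.4% of all windows. The Clec9a window lies within the span of the whole Clec1b gene, 129397297 to 129409335. Neither motif of interferon regulatory factors was in these 4 windows; they were in 2.98% and 2.30% of all windows. A second Irf8 window, at a RefSeq start 2281 bases from the one shown, had 54% G and C and no match to any of the motifs. The matches above describe letters, not binding.

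Flt3 and Zbtb46, which define the conventional dendritic lineage most closely, were scarce in the adventitia and all but missing from the intima. Genes with any read were fewer in the intima libraries as a whole, as given above. Flt3 (ENSMUSG00000042817, chromosome 5, 147330741 to 147400489, minus strand), the receptor for the growth factor that expands dendritic cells, had 9, 19 and 9 reads in the adventitia, or 2.28, 1.89 and 0.895 CPM. It had 0 reads in intima replicate 1 and 1 read in intima replicate 2, where the adventitia mean would have given 19.9 and 31.0. Its difference on the log2 scale was -5.31 with an SE of 1.52, which did not pass (edgeR adjusted p = 0.106).

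Zbtb46 (ENSMUSG00000027583, chromosome 2, 181387762 to 181459426, minus strand) was highest in 1 adventitia library. It had 8, 21 and 124 reads in the adventitia, or 2.03, 2.08 and 12.3 CPM, and 2 and 0 reads in the intima. Adventitia replicate 3 stood far above the other two, and the mean was 5.48 ± 5.93 CPM (SD, n = 3). At the lowest adventitia level the intima libraries would have had 22.3 and 34.8 reads. The difference on the log2 scale was -6.02 with an SE of 2.35, which did not pass (edgeR adjusted p = 0.162). Zbtb46 is also made by endothelial cells. The summed level of 8 endothelial markers was 30.5 CPM in adventitia replicate 3, 46.4 and 43.9 CPM in replicates 1 and 2, and 674 and 767 CPM in the intima libraries that had 2 and 0 Zbtb46 reads. Of the 7 tested endothelial markers, 6 were higher in both intima libraries by CPM and 1, Kdr, was lower. Over all tested genes those shares were 14.1% and 26.4%. The part of endothelial RNA in the Zbtb46 values was not tested.

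Kmo (ENSMUSG00000039783, chromosome 1, 175620381 to 175662116, plus strand), the enzyme that hydroxylates kynurenine on the way from tryptophan to nicotinamide, had 319, 186 and 306 reads in the adventitia, or 80.9, 18.5 and 30.4 CPM. It had 2 and 1 reads in the intima, where the adventitia mean would have given 502 and 782. Every adventitia library was far above both intima libraries. The log2 difference was -8.49 (SE 1.58, adjusted p = 0.0370 in edgeR), and the adjusted p was 0.242, 0.0580 and 0.133 without adventitia replicates 1, 2 and 3, 0.0613 without intima replicate 2 and 0.0292 without intima replicate 1.

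Most other genes of the kynurenine pathway were low in both groups. Of the 12 other genes of a list for the pathway, 5 were tested and 0 were called by edgeR; at an unadjusted p under 0.05, 1 was higher and 2 lower, DESeq2 called 1 higher and 1 lower, and limma voom 1 higher. Haao, which acts after Kmo, was at 0, 2.68 and 0.199 CPM in the adventitia, against 14.5 and 26.4 in the intima, the opposite side to Kmo (adjusted p = 0.174 in edgeR). Kynu was on the same side as Kmo, at 0.497 to 3.77 CPM in the adventitia, against 0.0668 and 0 in the intima (adjusted p = 0.117 in edgeR). By CPM, 4 of the 6 tested genes of the list, Kmo included, were lower in both intima libraries and 1 was higher. Over all tested genes those shares were 26.4% and 14.1%. Kyat1, a side-branch aminotransferase, had 23.8 CPM in intima replicate 2 but no read in replicate 1, against 1.29 to 5.87 CPM. Qprt, which makes the nicotinamide precursor, was at 0.507 to 7.46 CPM in the adventitia, against 0.0668 and 0 in the intima. Ido1, an entry enzyme of the pathway, did not exceed 0.398 CPM. The aryl hydrocarbon receptor Ahr, which senses kynurenine, was at 28.0 to 59.9 against 24.7 and 5.82 CPM.

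Dpp4 (ENSMUSG00000035000, chromosome 2, 62330073 to 62412231, minus strand), the surface peptidase CD26 used to mark dendritic cells and also found on T cells and fibroblast progenitors, had 23, 130 and 88 reads in the adventitia, or 5.84, 12.9 and 8.75 CPM. It had 0 and 5 reads in the intima. At the lowest adventitia level the expected numbers there were 64.2 and 99.9 reads. The change did not pass (difference of -5.94 on the log2 scale with an SE of 2.26, edgeR adjusted p = 0.153). An antisense gene, Gm13561, shares 232 exon bases with it and had 2, 2, 86, 0 and 0 reads in the same order of libraries; with no strand setting stated, reads there cannot be told apart. The summed level of 10 fibroblast and adventitial progenitor markers was 699 to 1748 CPM in the adventitia, against 213 and 268 in the intima. By CPM, 6 of the 10 were lower in both intima libraries and 1, Cd34, was higher. Over all tested genes those shares were 26.4% and 14.1%. Col1a1, Pi16 and Col15a1 overlapped between the groups. Of the 10 markers, 8 were highest within the adventitia in replicate 3 and 2 (Pdgfra and Col15a1) in replicate 2, as Dpp4 was. Their part in the Dpp4 values was not tested.

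**Figure D2:**
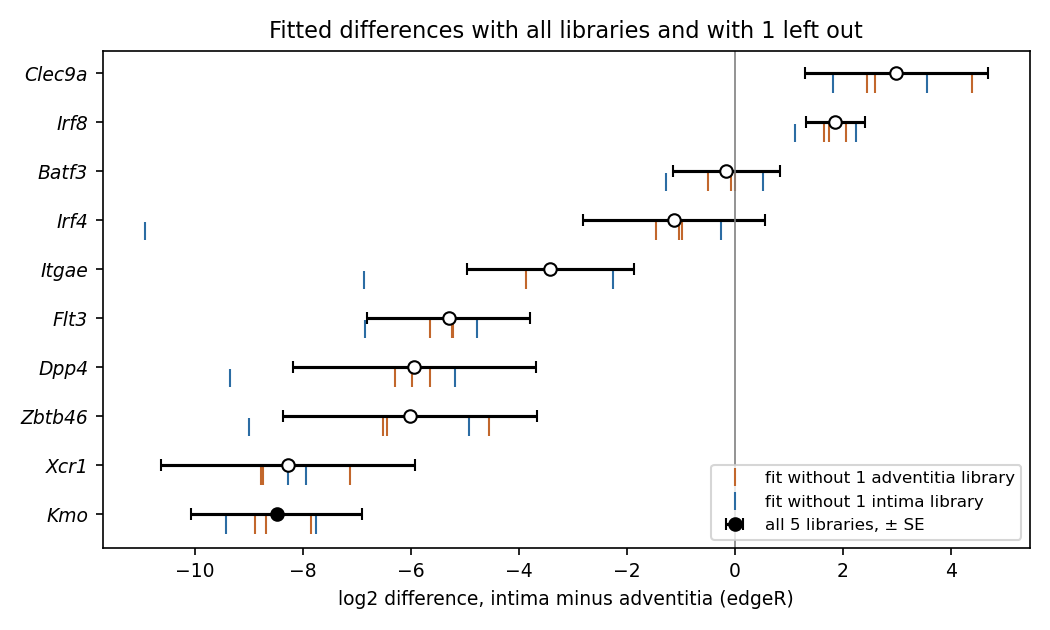
Log2 differences of the 10 genes, intima minus adventitia, from edgeR with all 5 libraries (circles ± SE, filled where the adjusted p was under 0.05) and with 1 library left out (ticks; orange, 1 adventitia library out; blue, 1 intima library out; Itgae was not tested without adventitia replicates 1 and 3). Kmo lies at -8.49 and Clec9a at 2.99, and the widest shift is that of Irf4, from -1.12 to -10.93 without intima replicate 2.

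Members also varied within the adventitia. Adventitia replicate 1 had the highest CPM of that group for 6 of 10 members, against 40.1% of all tested genes. These were Flt3, Kmo, Batf3 and the cDC1 markers Xcr1, Clec9a and Itgae. Itgb7, the partner chain of Itgae, also peaked there, at 15.2 CPM against 3.28 and 1.09 CPM. The same library had the fewest reads in all, and its Itgae level rested on 11 reads. With it left out, the log2 difference of Clec9a was 4.38 and that of Xcr1 -7.12, neither past the threshold (adjusted p = 0.403 and 0.215 in edgeR).

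Levels of different genes were compared by deposited RPKM, which divides by the gene length in the files. In the adventitia Batf3 was highest in each library, at 39.2 ± 17.9 RPKM (SD, n = 3). Kmo at 9.16 ± 7.02, Irf8 at 8.59 ± 1.83 and Irf4 at 5.83 ± 1.84 RPKM followed. The ranges of Kmo and Irf8 overlapped. Irf8 was above Irf4 in each adventitia library, at 1.98, 1.04 and 1.66 times. Dpp4 at 1.45, Xcr1 at 0.858, Zbtb46 at 0.644, Clec9a at 0.619, Itgae at 0.312 and Flt3 at 0.218 RPKM followed. Neighbours in that order had overlapping ranges, but the lowest Dpp4 value, 0.923 RPKM, was above every Itgae and Flt3 value. In the intima Batf3 at 28.4 ± 18.1 and Irf8 at 27.4 ± 18.8 RPKM (SD, n = 2) led and changed places between the libraries. Irf8 was at 0.344 times Batf3 in intima replicate 1 and 2.60 times Batf3 in replicate 2, against 0.138 to 0.555 times in the adventitia. Clec9a at 4.01 and Irf4 at 2.44 RPKM came next, and the other 6 members were at 0.0219 RPKM or less on average.

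**Figure D3:**
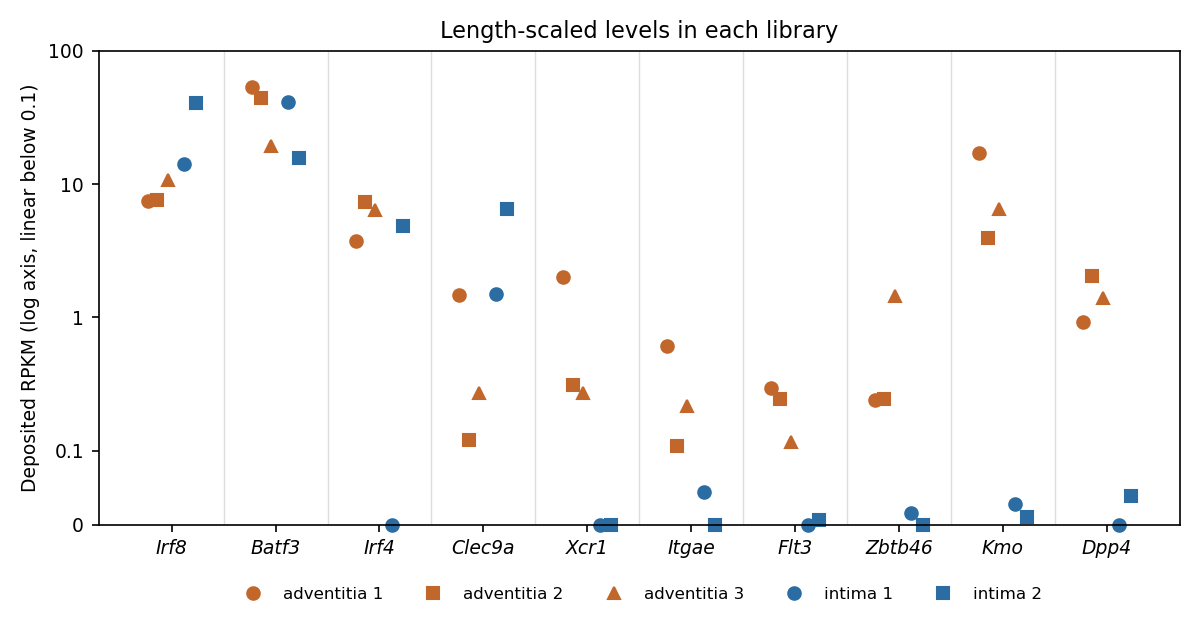
Deposited RPKM of the 10 genes in each library (y axis logarithmic, linear below 0.1; orange, adventitia; blue, intima; marker shape, replicate number). Batf3 is the highest gene in 4 libraries and Irf8 in intima replicate 2, while 6 genes sit below 0.05 RPKM in both intima libraries.

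Other genes tied to the dendritic branches came from lists and were read from the same fit. Of 15 cDC1 genes that are not members, 12 were tested, and edgeR called 1 higher and 0 lower. At an unadjusted p under 0.05, 2 were higher and 3 lower. Over all 13408 tested genes 1094 were higher and 1916 lower at that p, the background for this count in each list. DESeq2 and limma voom each called 2 higher (Cadm1 and Ppt1) and 1 lower (Nfil3). The called gene was Cadm1, an adhesion molecule, at 18.2 to 46.3 CPM in the adventitia, against 434 and 460 in the intima (difference of 4.24 on the log2 scale with an SE of 0.55, edgeR adjusted p = 0.00524). That call was lost without adventitia replicate 1 (adjusted p = 0.124). The most abundant others, Id2, Ppt1, Rab7b and Naaa, are widely expressed and had log2 differences of -0.91, 1.76, -0.10 and -1.08. Wdfy4, which cDC1 need for cross-presentation, was at 32.6 to 54.3 CPM in the adventitia, against 5.61 and 75.9 in the intima. Cd8a, shared by cDC1 of lymphoid organs and T cells, was at 0.200 and 10.5 CPM in the intima, the same order as the T cell genes. The median of the 12 tested genes was -0.50, beside 0.14 for all genes.

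Of 14 cDC2 genes that are not members, 13 were tested, with 1 called higher and 1 lower by edgeR and a median of -0.32. Cd209a, a lectin of the DC-SIGN family, fell from 201 to 388 CPM in the adventitia to 0.468 and 0.384 CPM in the intima (difference of -9.13 on the log2 scale with an SE of 0.76, edgeR adjusted p = 1.92e-04). Esam, an adhesion molecule of splenic cDC2 that endothelium also makes, rose from 0.298 to 1.52 CPM to 31.9 and 110 CPM (difference of 6.69 on the log2 scale with an SE of 1.10, edgeR adjusted p = 0.0191). Leaving out adventitia replicate 1, 2 or 3 ended the call (adjusted p = 0.165, 0.0721 and 0.101), as did leaving out intima replicate 2 (0.0629). The summed level of the 8 endothelial markers given above was also higher in the intima. Between the intima libraries, 4 of the 8 were higher in replicate 1 and 4 in replicate 2, where Esam was higher. The part of endothelial RNA in the Esam values was not tested. Sirpa, Clec12a, Mgl2 and Clec10a, which macrophages share with cDC2, were at 49.9 to 664 CPM in every library and were not called by edgeR or limma voom. DESeq2 called Clec10a lower. At an unadjusted p under 0.05 in edgeR, 1 gene of the list was higher and 4 lower.

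Among 14 pan-dendritic and precursor genes that are not members, all were tested, 0 were called by edgeR and the median was 0.24. At an unadjusted p under 0.05, 2 were higher and 3 lower, DESeq2 called 2 higher and 1 lower, and limma voom 1 higher. Gpr132, Pstpip1, Hmgn3 and Ciita were the most abundant by RPKM, with log2 differences of -1.55, -0.26, 2.33 and 2.99. Of 19 regulators and partners of the member factors, 18 were tested, 0 were called by edgeR and the median was -0.51. At an unadjusted p under 0.05, 1 was lower, DESeq2 called 2 lower and limma voom 0. Spi1, the ETS partner of Irf4 and Irf8, was at 45.9 to 95.1 CPM in the adventitia, against 27.5 and 65.4 in the intima, and Batf, which can stand in for Batf3, was at 8.63 to 39.5 against 16.2 and 9.56 CPM. The AP-1 genes Jun and Junb and the factors Irf2 and Id2, the most abundant of the list by RPKM, had log2 differences of -0.45, -1.23, -0.23 and -0.91.

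Of 9 ligands and binding partners of the members, 8 were matched, 5 were tested and 0 were called by edgeR, DESeq2 or limma voom or at an unadjusted p under 0.05. The GM-CSF receptor chains Csf2ra and Csf2rb were at 49.3 to 180 CPM throughout. Syk, the kinase that signals for Clec9a, was at 52.8 to 88.6 CPM in the adventitia, against 24.9 and 99.0 in the intima. Ada, the adenosine deaminase that binds CD26, was at 9.33 to 34.8 against 57.6 and 25.1 CPM. Cdh1, the E-cadherin bound by Itgae, did not exceed 3.18 CPM, and Xcl1 had at most 0.0995 CPM in any library. In bulk samples such as these, fewer cells of a type and less RNA per cell cannot be told apart.

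**Figure D4:**
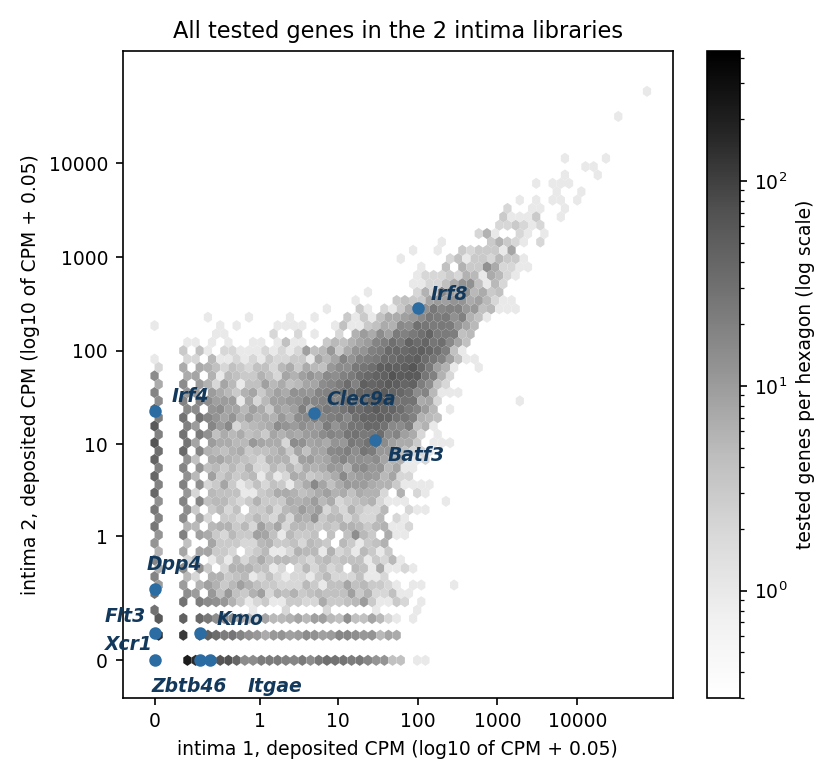
Deposited CPM of the 13408 tested genes in intima replicate 1 (x) and replicate 2 (y), both as log10 of CPM + 0.05 with tick labels in CPM; grey hexagons count genes, blue points are the 10 members. Irf8, Batf3 and Clec9a lie in the cloud read in both libraries, Irf4 on the edge of genes with no read in replicate 1, and the other 6 members in the corner near 0.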

How the data were processed

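Poly-A RNA of sorted aortic macrophages was amplified with the SMARTer Ultra Low kit and sequenced as 50-base single reads, per the labels' protocols. The deposited tables gave whole-number read counts per gene. The CPM and RPKM columns the authors deposited equalled those recomputed from the counts, with 0 mismatches at a tolerance of 1e-06. STAR 2.0.4b, Subread and featureCounts 1.4.5 on GRCm38 are named in the submitters' processing notes, without roles, annotation release or strand setting. Symbols from a reference table matched 40254 of 41388 identifiers; Flt3l of the partner list was not matched.

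Levels are deposited CPM unless named otherwise. Differences came from edgeR 4.0.16 (glmQLFit, glmQLFTest) in R 4.3.3, with filterByExpr by group (minimum count 10, minimum total 15), TMM factors, all 5 libraries, no covariates and Benjamini-Hochberg adjustment over 13408 genes; the SE is the difference over the square root of F. Reads expected in the intima, and the bound on Xcr1, used TMM-scaled CPM (trimmed mean of M values); floors of 3 reads hold counting error alone, because amplified reads carried no molecular identifiers. DESeq2 1.42.0, limma voom 3.58.1, other scalings and filters, thinning, a replicate block and each library left out were alternatives.

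Members and lists were chosen with earlier results of these data known. Named were all members, and from each dendritic list the called genes and up to 4 of the highest mean RPKM, with partners of at least 10 reads. Genes of other cell types, neighbours, Wdfy4, Cd8a, Spib, Ccr7, Nfil3, Spi1, Batf, Ido1, Kynu and Xcl1 were picked after their values were seen. Lists got counts and medians, with no set test. With 10 ways to split the libraries, an exact permutation test of 1 gene cannot go below p = 0.1 and was not used.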

Additional observations from a re-analysis of the deposited data

How the results depend on the processing

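Over all genes edgeR called 90, and 1225 with DESeq2, 839 with limma voom, 386 with no filter beyond 1 read, 396 where a gene needed 1 CPM throughout 1 group, and 10 to 389 with 1 library left out. The calls lower in the intima among the 10 members numbered 1, and 4 with DESeq2, 4 with limma voom, 2 with the 1 CPM filter (Kmo and Xcr1) and 0 to 1 with 1 library left out. Without intima replicate 2 that 1 call was Irf4 and no longer Kmo. No member was called higher under any setting run. The share of calls higher in the intima was 77.8%, and 61.3% under upper-quartile factors and 63.4% unscaled beyond library size. It was 40.8% with DESeq2, 25.5% with limma voom and 34.1% with the 1 CPM filter. The median log2 difference of all genes was 0.14, -0.35 under upper-quartile factors and -0.094 unscaled. It was -1.86 with no filter beyond 1 read, and -0.54 and -0.62 without intima replicates 1 and 2. The log2 difference of Batf3 turned from -0.16 to 0.092 with no filter, and ran from -1.27 to 0.51 with 1 library left out; the other 9 members kept their sign in every setting that tested them. Flt3, Zbtb46, Xcr1 and Itgae were not tested after thinning to the smallest library, nor Flt3 and Itgae with the 1 CPM filter; fewer reads leave them under the filter. The replicate numbers are shared by name only: the correlation of the difference between replicates 1 and 2 across the groups was 0.0244 over 13408 genes. With the replicate block edgeR called 183 genes and, of the members, Kmo alone. By RPKM Batf3 ranked 2 and Irf8 ranked 1 in intima replicate 2, against 1 and 2 over all libraries, and Irf8 ranked 3 in adventitia replicate 1. Of 142 refitted member differences, 128 kept direction and call, 8 became called, 4 lost the call and 2 reversed. The 128 include the DESeq2 fits of Flt3 and Itgae, which kept direction but had no adjusted p. The lower bound on the fold of Xcr1, 36.9, ran from 13.8 to 48.9 with 1 library left out, an alternative chosen after seeing the data. The causes of these shifts were not tested.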

Other observations

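Plasmacytoid dendritic cells are the interferon-producing branch. Of 13 genes listed for them, 8 were tested and 0 called by edgeR, DESeq2 or limma voom, with a median log2 difference of -2.51. At an unadjusted p under 0.05 in edgeR, 5 were lower and 0 higher, beside 1916 lower and 1094 higher of all 13408 tested genes. Siglech, their surface lectin that some macrophages share, ranged from 36.5 to 60.1 CPM in the adventitia libraries and stood in the intima at 37.6 CPM for replicate 1 and 0.0481 CPM for replicate 2, the opposite order of the intima libraries to that of Irf4. Bst2 and Tcf4, found in many cells, were at 124 to 191 and 89.1 to 514 CPM. Cox6a2 did not exceed 6.35 CPM and Spib, a factor of that branch, 2.49 CPM.

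Among genes of mature, migrating dendritic cells, Cd83 was at 1093 to 2871 CPM in all libraries. Ccl5, a chemokine that T cells also make, was at 42.4 to 148 CPM in the adventitia libraries and at 28.3 and 4.57 CPM in those of the intima. Of 14 listed genes 9 were tested; edgeR called 1 higher and 0 lower, with 2 higher and 3 lower at an unadjusted p under 0.05. DESeq2 and limma voom each called 2 higher, Cd200 and Apol7c, which stood at 11.8 and 76.5 CPM in the intima libraries and 1.49 CPM or less in the others. Cd200, an inhibitory surface protein that endothelium also carries, was the gene called by edgeR, at 4.17 to 6.76 CPM in the adventitia, against 107 and 148 in the intima (difference of 4.69 on the log2 scale with an SE of 0.65, edgeR adjusted p = 0.00742; 0.124 without adventitia replicate 1). Ccr7, the receptor that guides migration to lymph nodes, was at 12.6 CPM in adventitia replicate 3, at 10.7 CPM in intima replicate 2 and at 0.507 CPM or less in the other 3 libraries. Ccl17, a chemokine of these cells, was at 24.0 and 30.2 CPM in adventitia replicates 2 and 3 and had no read in the other 3 libraries.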
